A study of Arabidopsis thaliana with 6 samples.

Results

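Type-A response regulators are a family of small receiver-domain proteins of the cytokinin pathway. Cytokinin binds histidine kinase receptors, phosphate passes through histidine phosphotransfer proteins to type-B response regulators, and these transcription factors switch on target genes that include the type-A genes. Type-A proteins lack the DNA-binding part of the type-B proteins and damp the pathway that induces them, so their transcripts are widely used as a readout of cytokinin response. The family also meets auxin: MONOPTEROS (MP) is known to repress ARR7 and ARR15 at the shoot apex, auxin is known to induce the same genes in the embryonic root, and ARR16 is known as a gene of the stomatal lineage.

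The members were chosen by locus from a list of 9 type-A genes, and a gene was used where a probe set was paired with it and no other gene. This held for 2 of the 9, ARR15 (AT1G74890) and ARR16 (AT2G40670, named RR16 in the annotation), among 13286 genes with such a probe set and 22746 probe sets in all. ARR4 (AT1G10470), ARR5 (AT3G48100), ARR6 (AT5G62920), ARR7 (AT1G19050), ARR8 (AT2G41310), ARR9 (AT3G57040) and ARR17 (AT3G56380) were not analysed here, so the 2 genes do not stand for the family. Neither probe set carries the suffix that marks a match to several transcripts.

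Whole Arabidopsis thaliana seedlings, 9 days old, were shaken in 6 separate liquid cultures, and the RNA of each culture went onto its own ATH1 array, giving 3 groups of 2. The pRPS5A-Myc-GR-bdl line expresses, from a promoter most active in dividing cells, the auxin-resistant repressor bdl fused to a glucocorticoid receptor, which lets it enter the nucleus when dexamethasone (DEX) is given. The mp-B4149 line is mutant for MP, the auxin response factor to which BDL binds, and such seedlings are known for lacking an embryonic root. The first GR-bdl group had no DEX before its 1 h of auxin (IAA, 50 µM) and serves as the control. The second had 1 h of DEX at 10 µM before the IAA. By its source labels the mp group had DEX and IAA alike. All groups therefore had auxin. No cytokinin treatment is named, no group had auxin withheld, and the only seedlings with DEX but no fusion protein were mp. How many seedlings made up a culture and the accession background of each line are not given in the sources used here.

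Values are gcRMA intensities on the log2 scale, where a step of 1 is a doubling. Array medians lay between 26.1 and 27.1 on the linear scale, and each array had 43.1 to 44.1% of its probe sets under 4 on the log2 scale, which is called the low end of the range below. No detection call was used, so a level at the low end may be background. Neither MP nor BDL had a probe set paired with it, so the line labels were not checked on these genes. LHCB4.1, a light-harvesting protein gene of green tissue, lay between 13.7 and 14.0 on the log2 scale on all arrays. PYK10, listed here among the root markers, lay between 13.1 and 13.3. In bulk seedlings, fewer cells that express a gene and less RNA per cell cannot be told apart.

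ARR16 was called in the 3 comparisons below, and ARR15, at the low end of the range, in none of them as reported. Whether the 2 members differed in response was not tested. The log2 intensity of ARR16 was 4.68 and 4.54 on the control arrays, 6.79 and 5.89 on the arrays of GR-bdl with DEX, and 2.44 and 1.94 on the mp arrays. On the linear scale these were 25.6 and 23.3, 111 and 59.5, and 5.41 and 3.83. No array of a group overlapped with an array of another, and the order was the same throughout, with mp lowest, the controls between and GR-bdl with DEX highest. The mean was 4.61 ± 0.10 in the controls, 6.34 ± 0.64 after DEX and 2.19 ± 0.35 in mp (SD, n = 2). The arrays within the DEX group lay 0.90 apart, a wider spread than 99.7% of the probe sets showed in that group, and the mp spread was wider than that of 95.5%.

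ARR15 was at the low end of the range on every array. Its log2 intensity was 3.66 and 3.44 in the controls, 3.73 and 3.65 after DEX, and 3.22 and 3.46 in mp. The DEX and control arrays overlapped, as did the mp and control arrays. Both mp arrays lay below both DEX arrays, by little. The means were 3.55 ± 0.16, 3.69 ± 0.06 and 3.34 ± 0.17 (SD, n = 2).

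**Figure D1:**
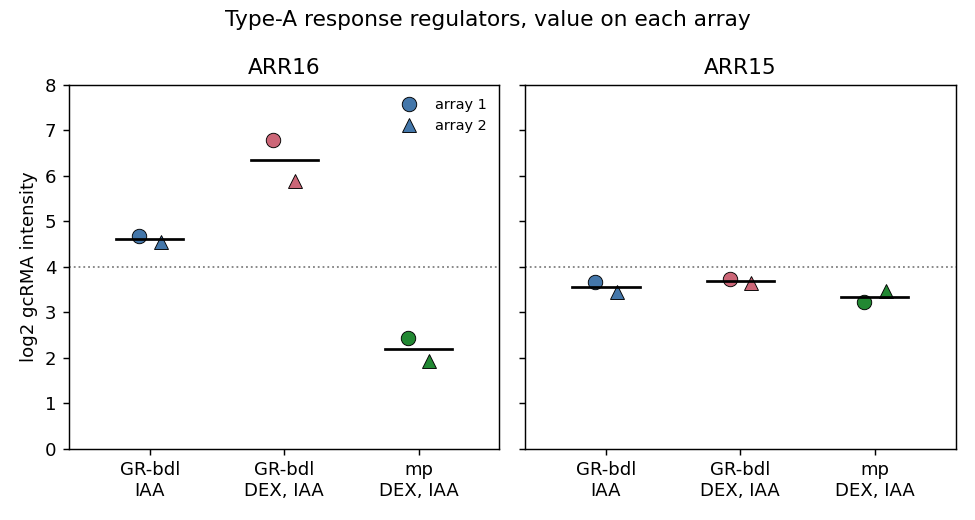
log2 gcRMA intensity of ARR16 (left) and ARR15 (right) on each of the 6 arrays, by group. Symbols are single arrays, bars are means of 2, and the dotted line at 4 is the low end of the range. ARR16 stepped from 2.19 in mp to 4.61 in the controls and 6.34 after DEX, while all ARR15 values lay under the line.

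The first comparison set GR-bdl with DEX against GR-bdl without DEX and asked what changed when the repressor was released before auxin. ARR16 rose by 1.73 ± 0.28 (limma SE, n = 2 per group), a 3.32-fold increase with a 95% confidence interval of 2.13 to 5.17. This SE, and that of later differences, pools the spread over the 3 groups and draws it toward that of all probe sets. It is therefore not the spread of the 2 compared groups alone. For ARR16 the SD used by limma was 0.28. That is below its SD of 0.64 in the DEX group and 0.35 in mp, and above the 0.10 of the controls. Both DEX arrays stood above both control arrays, and the limma adjusted p was 0.0172. Of all probe sets, 2.27% were called in this comparison, 0.637% as higher, and 3 of the 22746 rose by more than ARR16. Without DEX array 1 the rise was 1.28, and without DEX array 2 it was 2.18. Without control array 1 the rise was 1.80, and without control array 2 it was 1.66. The call was kept without either DEX array, where the wide DEX spread left the fit. It was lost without either control array, where that spread stayed and the narrow control spread left. Why the call was kept or lost was not tested, and which arrays it rests on cannot be read from these fits. The call was also lost with a pseudocount of 16, where the rise was 1.27 (limma adjusted p = 0.153). With each of the 6 arrays left out in turn, 0 to 8 probe sets rose by more than ARR16.

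ARR15 differed by 0.14 ± 0.13 after DEX (limma adjusted p = 0.762). The 95% interval of the difference ran from −0.17 to 0.44, so a rise as large as that of ARR16 lay outside it, as measured by a probe set at the low end of the range. Whether the response of ARR15 differed from that of ARR16 was not tested.

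The other measured genes of cytokinin signalling and metabolism did not pass the test after DEX. Of 75 genes listed for the pathway outside the type-A family, 8 had a probe set paired with them alone. These were the type-B regulators ARR18 and ARR19, the type-C regulator ARR22, the glucosyltransferase genes UGT76C1, UGT76C2 and UGT73C1, and AT2G40230 and AT5G18600, from 3 genes listed as cytokinin-induced. None of 6 listed phosphotransfer proteins, 3 receptors, 7 cytokinin oxidases or 12 cytokinin response factors was measured. By limma, 0 of the 8 were called in either direction after DEX, and 3 had an unadjusted p under 0.05: UGT76C2 (0.49 ± 0.13), UGT73C1 (0.37 ± 0.13) and AT2G40230 (0.38 ± 0.13). The median difference of the 8 was 0.26, against 0.04 over all probe sets. These measured cytokinin-induced genes, which encode an acyltransferase of the HXXXD type and a CC-type glutaredoxin, had limma adjusted p values of 0.268 and 0.615. With 2.27% of all probe sets called in this comparison, 0 of 8 is near the background and says little about the pathway.

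The second comparison set mp against GR-bdl without DEX. By the source labels the line, the fusion protein and DEX all differed here, so their parts cannot be told apart. This holds for all later values of mp against the controls. Here ARR16 fell by 2.43 ± 0.28, to a level 5.37-fold lower (95% interval 3.45 to 8.36), with a limma adjusted p of 0.000187. In this comparison 41.5% of all probe sets were called, 17.5% as lower, so a call by itself sets ARR16 little apart. A larger fall was found for 553 of the 22746 probe sets. The mp level was at the low end of the range, where a fold rests on how background was removed. With a pseudocount of 16 the fall was 0.97 and was still called, at a limma adjusted p of 0.0427. The call held under all 14 alternatives, including each array left out, but these are not 14 separate fits. Leaving out either array of the group outside the comparison gave the same result as fitting the 4 compared arrays alone. In the filter on a mean log2 above 4, the mean ran over all arrays. The DEX arrays, where ARR16 was high, counted toward its passing, so that setting adds no support. ARR15 differed by −0.21 ± 0.13 (95% interval −0.52 to 0.10, limma adjusted p = 0.239).

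Most of the measured root markers, but not PYK10, were lower in mp. In mp against the controls, where DEX differed as well as the line, 23.9% of all probe sets were called higher and 17.5% lower. Of 4 measured root markers of 14 listed, 3 were lower in mp than in the controls: EXPA7 by −3.80 ± 0.22, EXPA18 by −2.89 ± 0.25 and JKD by −1.52 ± 0.18. The first pair are expansin genes of root hairs, and JKD acts in root radial patterning. PYK10, a beta-glucosidase gene on the same list, was not called (0.10 ± 0.11) and made up most of the summed signal of the list. That sum was 9501 to 9813 in the controls, 9390 to 9893 after DEX and 9780 to 10415 in mp. Without PYK10 the sum of the other 3, on the linear scale, was 279 to 320 in the controls, 188 to 307 after DEX and 34.4 to 34.8 in mp. EXPA7, EXPA18 and JKD stood at 3.65, 3.70 and 3.16 in mp, at the low end of the range. After DEX, where 2.27% of all probe sets were called and ARR16 rose, 0 of the 4 were called by limma, with 2 at an unadjusted p under 0.05. EXPA7 differed by −0.51 ± 0.22 after DEX, EXPA18 by 0.09 ± 0.25 and PYK10 by 0.005 ± 0.11. JKD differed by −0.80 ± 0.18 there (limma adjusted p = 0.0756), and it was called lower without control array 2 (0.0367), with the other eBayes settings (0.0442) and after centring on the hybridization controls (0.012). Of 4 photosynthesis genes SBPASE (0.31 ± 0.11) was called higher in mp, in 7 of its 14 alternatives too, with no call for LHCB4.1 (−0.17), RCA (−0.18) or PRK (0.08). Their summed intensity was 34947 to 36659 in mp and 37418 to 37576 in the controls. Of 2 leaf polarity genes YAB3 was called higher (1.02 ± 0.14) and PHV was not called (−0.44 ± 0.21). Of 6 shoot meristem genes CLV3 alone was measured, at 2.64, 2.64 and 2.90 in the 3 groups, all at the low end. The part of root tissue in the fall of ARR16 was not tested.

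Array controls differed between the groups as well. The poly-A controls, which go in ahead of the labelling step, averaged 5.58 and 5.31 on the control arrays, 5.90 and 5.73 after DEX, and 5.90 and 6.19 in mp on the log2 scale, so that the DEX and control arrays did not overlap. Their part in the rise of ARR16 after DEX was not tested. The hybridization controls, RNA added before hybridization, averaged 8.15 and 8.27 on the mp arrays and 7.82 to 7.96 on the other 4 on the log2 scale. The ubiquitin controls gave a 3′ minus 5′ difference of 0.73 on both mp arrays and 0.48 to 0.55 elsewhere. Centring on the hybridization controls moved the median difference of all probe sets from 0.12 to −0.22. ARR16 fell by 2.76 on that scale. Its difference was −2.54 once the median over all probe sets was subtracted on the scale used here.

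In the third comparison treatment was matched by the source labels, with DEX and IAA in mp and in GR-bdl, and the line differed. The titles of the mp arrays name IAA but not DEX. ARR16 was lower in mp by −4.16 ± 0.28, with a limma adjusted p of 7.98e-06. On the intensities as deposited this is 17.8-fold (95% interval 11.5 to 27.8), a size that rests on the mp level at the low end of the range, which may be background. With a pseudocount of 16 the difference was −2.25 and was still called (limma adjusted p = 0.00379). Of all probe sets 40.1% were called and 18% as lower, and 187 were lower by more. The comparison shares its arrays with the other comparisons, and its value is the difference between theirs. ARR15 differed by −0.35 ± 0.13, with a 95% interval from −0.65 to −0.04 before adjustment and a limma adjusted p of 0.0718. After centring on the hybridization controls ARR15 was called lower in mp against both GR-bdl groups, by −0.55 and −0.61, a scale on which all differences within a comparison are lower by 1 fixed amount.

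Of the measured cytokinin genes outside the type-A family, some were higher and some lower in mp. Against the controls 3 of the 8 were higher and 2 lower, where 23.9% and 17.5% of all probe sets were called, and against GR-bdl with DEX it was again 3 and 2, where the shares were 22.1% and 18%. With 8 genes, these counts are near the background. The median difference of the 8 was 0.16 and 0.01, against 0.12 and 0.07 over all probe sets. AT5G18600, the glutaredoxin gene, stood at 8.97 and 8.75 in the controls, 9.20 and 8.93 after DEX, and 3.78 on both mp arrays. Its fall against the controls was 5.08 ± 0.13 (limma adjusted p = 4.8e-08), to the low end of the range. AT2G40230, the acyltransferase gene, stood at 4.98 and 4.95 in the controls, 5.24 and 5.46 after DEX, and 3.07 and 3.31 in mp, a fall of 1.78 ± 0.13 (limma adjusted p = 1.46e-05). Both measured genes of the 3 listed as cytokinin-induced were lowest in mp, as ARR16 was, where 17.5% of all probe sets were called lower against the controls. Neither was called after DEX, where ARR16 was.

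Among the glucosyltransferases, UGT73C1, whose enzyme can attach glucose to the side chain of zeatin-type cytokinins, was at 3.72 and 3.45 in the controls and 5.81 and 5.90 in mp. It was higher in mp by 2.27 ± 0.13 against the controls and by 1.90 ± 0.13 against GR-bdl with DEX (limma adjusted p = 2.6e-06 and 7.6e-06). UGT76C1, an enzyme gene of cytokinin N-glucosylation, was higher by 0.45 ± 0.14 and 0.53 ± 0.14. UGT76C2, of the same kind, differed by 0.17 ± 0.13 and −0.32 ± 0.13 and was not called. Of the regulators, ARR18, a type-B gene, was higher by 0.59 ± 0.13 and 0.44 ± 0.13 in mp while at the low end of the range in all groups. ARR19 and ARR22 lay there too and were not called.

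The calls of ARR18 and UGT76C1 depended on the processing. Both were lost in both mp comparisons after centring on the hybridization controls, where ARR18 differed by 0.26 and 0.17 and UGT76C1 by 0.11 and 0.26. Against the controls, ARR18 lost its call without control array 2 (limma adjusted p = 0.0674), and UGT76C1 lost it without any control or mp array (0.0881 to 0.152) and with the other eBayes settings (0.0524). Against GR-bdl with DEX, both lost it without DEX array 2, mp array 1 or mp array 2 (ARR18 at 0.113, 0.0861 and 0.0782, UGT76C1 at 0.0705, 0.0627 and 0.0542). UGT76C2 was called lower in that comparison without DEX array 2 (0.0435) and after centring on the hybridization controls (−0.59).

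**Figure D2:**
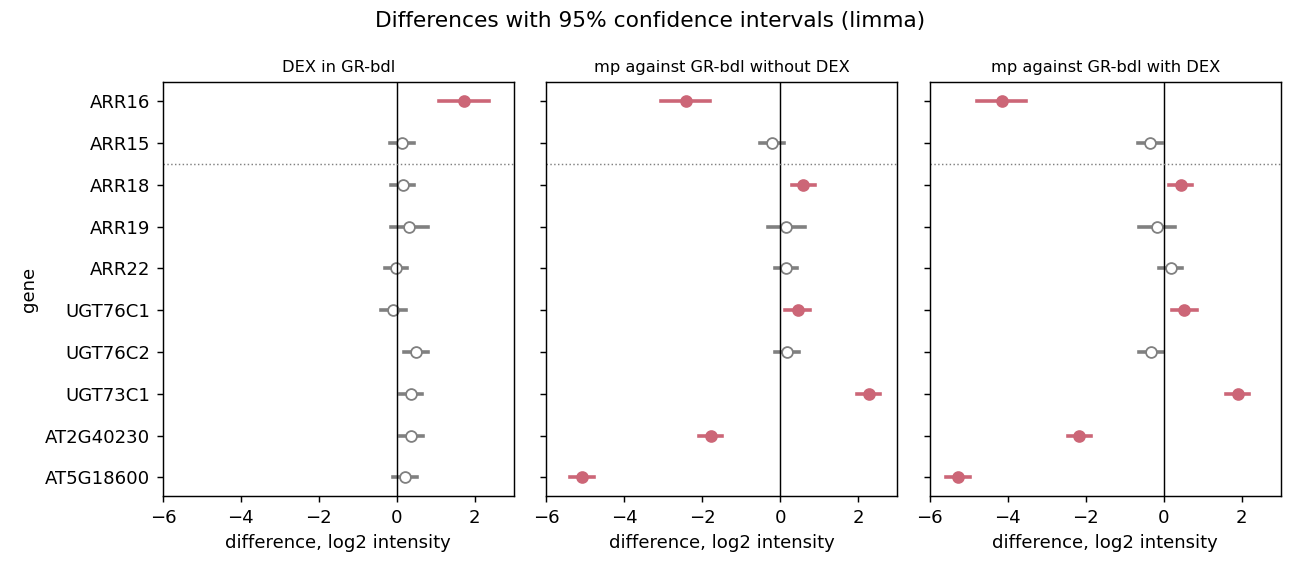
Differences in log2 intensity with 95% confidence intervals for ARR16 and ARR15 (above the dotted line) and the 8 other measured cytokinin genes, in the 3 comparisons. Filled points passed the limma test at an adjusted p of 0.05. ARR16 is the filled point to the right after DEX, at 1.73, and lies to the left in both mp comparisons, at −2.43 and −4.16.

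The genes whose profile lay nearest to that of ARR16 were sought among all probe sets paired with 1 gene, by the Euclidean distance of log2 values centred on the control mean, over the 6 arrays. The nearest were AT1G49470 (distance 1.31), ATL8 (1.52), which encodes a RING-H2 finger protein, and AT1G73630 (1.71). Their Pearson correlations with ARR16 were 0.98, 0.96 and 0.96 over the same 6 arrays, given as a description, since the genes share the arrays and the 3 groups. AT1G49470 stood at 5.19 and 5.08 in the controls, 6.25 and 5.76 after DEX, and 2.73 and 2.75 in mp. ATL8 stood at 4.61 and 4.44, 5.46 and 5.67, and 2.38 and 2.72. AT1G73630 stood at 4.0 and 4.30, 4.81 and 5.04, and 2.36 and 1.93. Their group order is that of ARR16 because they were chosen by it, so no test is given. After DEX their differences were 0.87, 1.04 and 0.77, against 1.73 for ARR16.

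**Figure D3:**
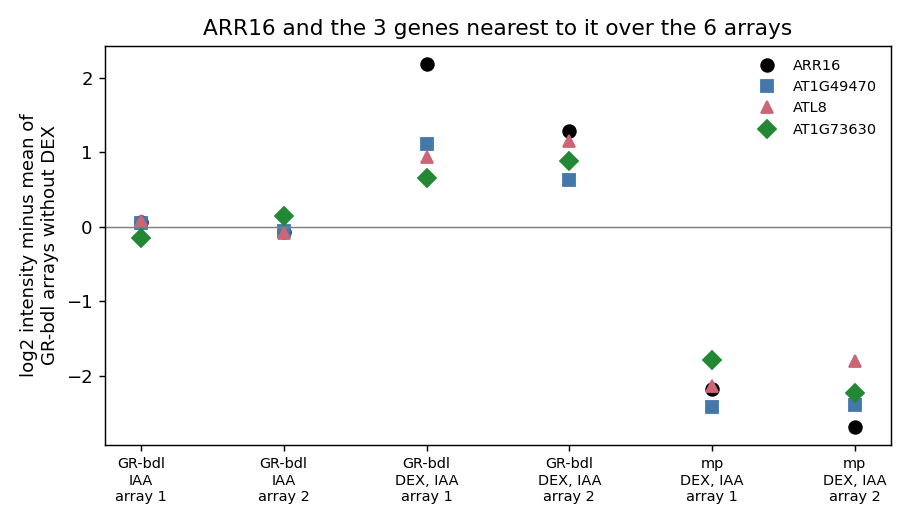
log2 intensity of ARR16 and its 3 nearest genes on each array, minus the mean of each gene on the GR-bdl arrays without DEX. The 4 genes lie above 0 on both DEX arrays and below −1 on both mp arrays, and ARR16 is the highest point on each DEX array.

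**Figure D4:**
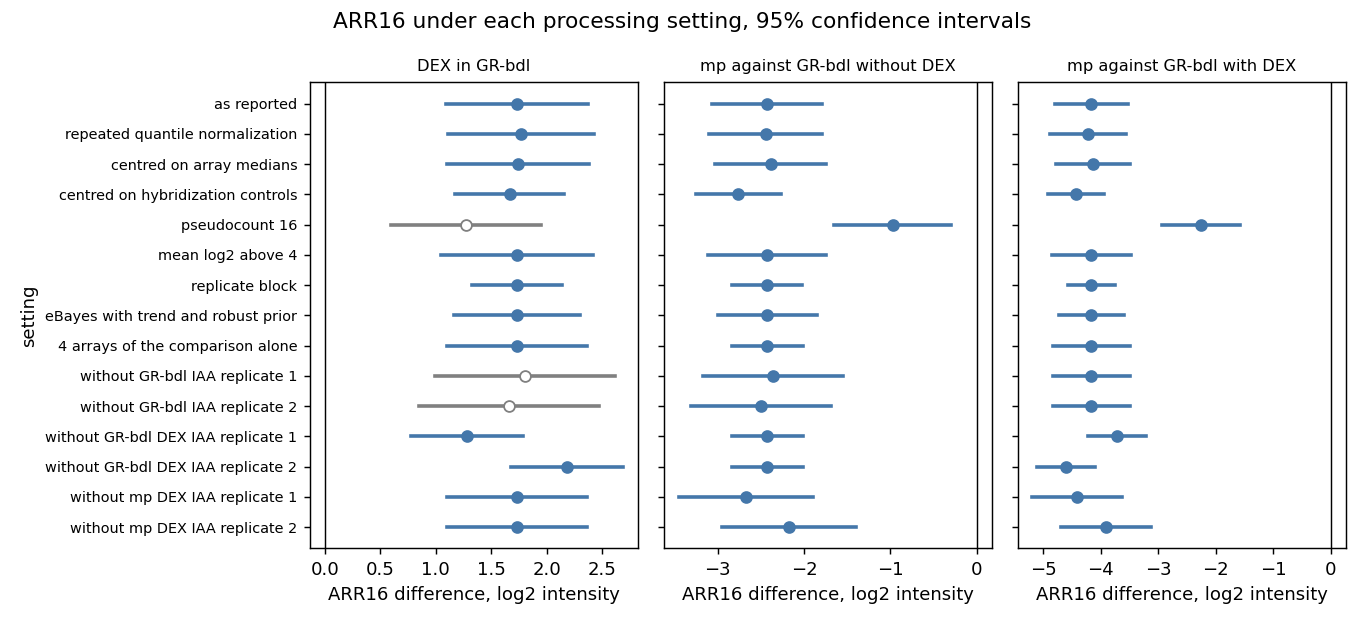
ARR16 differences in log2 intensity with 95% confidence intervals in the 3 comparisons, as reported and under the 14 other settings. Filled points passed an adjusted p of 0.05 (limma). After DEX the difference ranged from 1.27 to 2.18 and 11 of 14 settings kept the call, while both mp comparisons kept it in all 14. The 14 settings are not all distinct. Leaving out either array of the group outside a comparison gives the same result as fitting the 4 compared arrays alone. The filter on a mean log2 above 4 used all arrays, so ARR16 passed it with its high DEX arrays counted.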

How the data were processed

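Per the submitters' processing notes, the authors made the deposited intensity values with GCRMA (no version named in the sources used here), a method that corrects background by probe sequence, normalizes between arrays and summarises each probe set. The scale is linear, as values such as 16349 for LHCB4.1 on array 1 of GR-bdl with DEX are too large for log2 values. Groups follow the source labels, which match the design text, whereas the treatment protocol lists DEX for every sample. The titles of the mp arrays name IAA without DEX, unlike their source labels. The log2 of each intensity was taken without pseudocount or filter, and 64 control probe sets were left out. Names came from the platform annotation, through which 13436 of the 13513 probe sets paired with 1 gene matched a RefSeq locus (TAIR10.1).

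All 22746 probe sets were fitted with limma 3.58.1 in R 4.3.3 (lmFit, a mean per group, all 6 arrays, then eBayes), with 3 residual and 5.12 prior degrees of freedom. P-values were adjusted by Benjamini-Hochberg across all probe sets and called under 0.05. An exact permutation test of 2 against 2 arrays cannot go below 0.333 and was not used. The fit assumes the same spread in each group. The fitting was also run on simulated data drawn with that same spread in each group, so that run says nothing about unequal spread. The number of arrays limits the precision. The members, lists and alternatives were chosen with earlier results of these data known. Named were the members, the other measured cytokinin genes, up to 3 called genes of each marker list and the 3 genes nearest to a called member, with the uncalled cytokinin genes and uncalled markers added. Planned promoter motif searches and sequences were not used here.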

Additional observations from a re-analysis of the deposited data

How the results depend on the processing

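ARR16 kept its direction in all 3 comparisons under all 14 alternatives. With a pseudocount of 16, its DEX difference was 1.27 and no longer called, so 0 members were called after DEX, and 231 probe sets in place of 517. With arrays left out, its DEX difference ranged from 1.28 to 2.18, called members from 0 to 1, and called probe sets from 240 to 437. Leaving out control array 1 gave 275 called probe sets and leaving out control array 2 gave 240. Centring on the hybridization controls gave 2 called members in each mp comparison, with ARR15 at −0.55 and −0.61, and 3 called cytokinin genes of 8 in mp against the controls. With arrays left out, that count ranged from 3 to 5 in both mp comparisons, at 3 without control array 2 in the first and without either mp array in the second. After that centring, mp against the controls turned in sign for ARR19 (−0.18), ARR22 (−0.18), UGT76C2 (−0.17) and SBPASE (−0.024), ARR22 turned against GR-bdl with DEX (−0.090), and SBPASE turned after DEX (−0.041). Of these SBPASE alone had been called, against the controls. With an array left out, uncalled differences crossed 0 for ARR19 in mp against the controls (−0.069 to 0.39) and against GR-bdl with DEX (−0.42 to 0.091). After DEX they did so for ARR22 (−0.079 to 0.037), UGT76C1 (−0.27 to 0.10), EXPA18 (−0.37 to 0.54), SBPASE (−0.0055 to 0.058) and YAB3 (−0.015 to 0.38). JKD lost its call in mp against GR-bdl with DEX without DEX array 2 or mp array 2 (limma adjusted p = 0.085 and 0.0652) and with the pseudocount (0.128). The cause was not tested.

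Over all probe sets, arrays with the same replicate number did not deviate together, with correlations of −0.03, −0.04 and 0.10 between groups. For ARR16, array 1 was above array 2 in each group: 4.68 and 4.54 in the controls, 6.79 and 5.89 after DEX, and 2.44 and 1.94 in mp. With the replicate block the DEX comparison called 559 probe sets and ARR16 rose by 1.73 (limma adjusted p = 0.00145). Genes with a mean under 4, ARR15 among them, gave no value under the filter on low means. That mean was taken over all arrays, so the DEX arrays, where ARR16 was high, counted toward its passing. An array left out leaves its group with 1, assumed to vary like the others.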

Other observations

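A further response regulator gene, ARR23, was found in the annotation outside the lists and was looked up after that. Its mean log2 intensity was 1.41 in the controls, 1.61 in GR-bdl with DEX and 1.72 in mp, at the low end of the range in all 3 groups. None of its differences was called by limma, and the adjusted p values were 0.555 after DEX, 0.0589 for mp against the controls and 0.473 for mp against GR-bdl with DEX.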
